A study of Gallus gallus with 6 samples.

Results

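The circadian clock genes of the liver were examined in chickens labelled resistant or susceptible to ALV-J, which is an avian leukosis retrovirus of subgroup J. The set comprises 9 genes: the activators ARNTL, CLOCK and NPAS2, the repressors PER2, PER3, CRY1 and CRY2, the nuclear receptor NR1D2 and the transcriptional repressor BHLHE40. They were taken from the 14481 protein-coding genes of the deposited table by symbol. Of the 9 genes, 7 matched by symbol. ARNTL is listed there as BMAL1 and NR1D2 as REV-ERBB, and these 2 were matched through the synonyms of the RefSeq gene table, a step added after the data were seen. Liver total RNA was sequenced from 3 birds labelled ALV-J-resistant and 3 birds labelled ALV-J-susceptible, each library being a separate bird. The labels give no age, sex, breed, infection status, feeding state or hour of collection.

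The vertebrate clock is a loop of transcription and repression that runs in nearly every cell. ARNTL pairs with CLOCK or NPAS2 and switches on the PER and CRY genes, whose proteins then block that pair. In a second loop, NR1D2 represses ARNTL and the receptors of the ROR family activate it, so that in mouse liver ARNTL transcripts peak roughly opposite to those of NR1D2 and PER2. The liver clock times bile acid, lipid and glucose metabolism, and meals can shift it.

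Depth and composition were as follows. Library size, worked out from the steps of the scaled counts, was 3831119 fragments in the smallest library, resistant 3, and 6623026 in the largest, and between 6671 and 9424 genes had a level above 0 in a bird. Levels are given in FPKM, fragments per kilobase of transcript scaled to depth. Of the 8 hepatocyte markers 7 were above 0 in every bird, TTR for example between 3673 and 10111 FPKM. The exception was ALB, which reached 24858 FPKM or more in 4 birds but was listed at 0 in resistant 2 and also in susceptible 3, so a listed 0 is not read as absence. In bulk liver, fewer cells of a type and less RNA per cell cannot be told apart. Both matched skeletal muscle markers were at 0 in all birds. Resistant 3 and susceptible 3 had 0 fragments on chromosome W, which hens carry and males lack, whereas the other 4 birds had between 145 and 427.

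Every clock gene passed the filter of a mean of at least 0.5 FPKM. As levels per transcript length, CRY1 ranked highest with a mean of 50.1 ± 13.8 FPKM (SD, n = 6 birds), followed by CLOCK with 42.1 ± 12.3 and CRY2 with 39.7 ± 21.4. NR1D2 averaged 20.9 ± 11.5 FPKM and PER2 17.6 ± 10.6, and BHLHE40 averaged 7.87 ± 2.72 and ARNTL 7.57 ± 3.91. PER3 ranged between 0 and 7.81 FPKM and NPAS2 between 0 and 6.42. No step between neighbours in this order was larger than the larger SD of the pair. The 9 genes rested on between 19 and 1965 fragments wherever they were above 0.

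No clock gene passed the test between resistant and susceptible livers. With limma over 9626 genes, 0 of the 9 passed a Benjamini-Hochberg adjusted p of 0.05, and over all genes 0 passed in either direction (0% higher and 0% lower). At an unadjusted p under 0.05 limma counted 0 of the 9, where 3.87% of all genes tested were counted. The resistant and susceptible birds overlapped for all 9 clock genes, and 8.41% of all genes tested had no overlap. Of the 9 log2 fold changes, taken as resistant minus susceptible, 3 were above 0 and 6 below, with a median of -0.46. That median was 0.0032 without susceptible 2 and between -0.36 and -0.04 without each of the other birds in turn. Over all genes tested 52.8% of the log2 fold changes were above 0 and 47.2% below, and their median was 0.05. With listed 0s taken as missing, the clock median was -0.19 and that of all genes -0.20. With a filter of 5 FPKM, which 7 clock genes passed, these medians were -0.19 and -0.01. With 3 birds per group, all p-values rest on the spread among these 6 livers.

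Among the activators, ARNTL is the partner that CLOCK and NPAS2 share. The gene spans 6981156 to 7024873 of chromosome 5 (galGal4 build, as are all positions given here, minus strand). ARNTL had 9.91, 5.29 and 13.4 FPKM in resistant 1 to 3, against 9.23, 3.06 and 4.55 in susceptible 1 to 3. Resistant 3 was highest and susceptible 2 and 3 lowest, and the groups overlapped. Resistant minus susceptible, the log2 fold change was 0.70 (SE 0.72) and its 95% interval -0.90 to 2.30, and the adjusted p by limma was 0.984. It was 1.07 without susceptible 1, 0.43 without resistant 3 and 0.40 without susceptible 2.

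CLOCK, a histone acetyltransferase as well as a DNA-binding protein, spans 64696007 to 64717393 of chromosome 4 (plus strand). It had 23.8, 31.2 and 54.2 FPKM in resistant 1 to 3, against 48.3, 42.2 and 53.0 in susceptible 1 to 3. Resistant 1 and 2 were below every susceptible bird, whereas resistant 3 was the highest of all. CLOCK had a log2 fold change of -0.46 (SE 0.44), with -1.44 to 0.52 as 95% interval, and it was -0.78 without resistant 3 (unadjusted limma p 0.072) but -0.21 without resistant 1 (0.681).

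NPAS2, which can stand in for CLOCK, spans 132655000 to 132723188 of chromosome 1 (plus strand). It had 1.56, 1.69 and 0 FPKM in resistant 1 to 3, against 2.31, 6.42 and 0 in susceptible 1 to 3. The 2 birds listed at 0 were those without chromosome W fragments, and the other birds rested on 41 to 108 fragments. NPAS2 had a log2 fold change of -0.61 (SE 0.96) with all birds and 0.06 without susceptible 2.

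Among the repressors, PER2, whose transcription responds both to the clock and to hormonal signals, varied most among the clock genes that were above 0 in every bird. The gene spans 4978758 to 5005060 of chromosome 9 (minus strand). PER2 had 10.1, 5.80 and 30.5 FPKM in resistant 1 to 3, against 9.97, 20.2 and 29.1 in susceptible 1 to 3. Resistant 3 and susceptible 3 were nearly level at the top, and its highest bird was 5.25 times its lowest. Between the groups the log2 fold change was -0.52 (SE 0.69), within a 95% interval of -2.07 to 1.03, with -1.14 without resistant 3 and -0.04 without resistant 2.

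PER3, a period protein that in mouse is dispensable for the core rhythm, spans 291840 to 308592 of chromosome 21 (minus strand). It had 5.24, 3.35 and 0 FPKM in resistant 1 to 3, against 7.81, 1.20 and 4.56 in susceptible 1 to 3. Its order over the birds differed from that of PER2. Susceptible 1 was highest for PER3 but had 9.97 FPKM of PER2, and susceptible 2 had 1.20 of PER3 but 20.2 of PER2. Resistant 3, the highest bird for PER2, was listed at 0 for PER3, which is not read as absence. With all birds PER3 had a log2 fold change of -0.66 (SE 0.99), which turned to 0.13 without resistant 3.

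CRY1 and CRY2 are the cryptochromes, the strongest repressors of the loop in mammals. CRY1 (chromosome 1, 53554188 to 53588375, minus strand) had 46.3, 31.6 and 63.5 FPKM in resistant 1 to 3, against 49.7, 68.4 and 41.2 in susceptible 1 to 3. Its SD over the 6 birds on the log2 scale was 0.40, the lowest of the 9 genes, and its log2 fold change was -0.19 (SE 0.43), within a 95% interval of -1.15 to 0.76. Without resistant 2 it turned to 0.06 and without susceptible 2 to 0.0032.

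CRY2 (chromosome 5, 23244457 to 23264618, minus strand) had 83.2, 31.0 and 28.7 FPKM in resistant 1 to 3, against 35.4, 29.0 and 31.1 in susceptible 1 to 3. Resistant 1 stood apart, with 1965 fragments, and the other 5 birds lay between 28.7 and 35.4 FPKM. The log2 fold change of CRY2 was 0.40 (SE 0.49) and turned to -0.09 without resistant 1.

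NR1D2, also known as REV-ERB beta, links the loop to lipid metabolism. The gene spans 37787391 to 37809859 of chromosome 2 (plus strand). NR1D2 had 9.28, 15.0 and 18.7 FPKM in resistant 1 to 3, against 12.6, 31.3 and 38.6 in susceptible 1 to 3. Susceptible 2 and 3 were above every resistant bird, and susceptible 1 lay among the resistant birds. It had the smallest p of the 9 genes, with a log2 fold change of -0.81 (SE 0.57) inside a 95% interval of -2.09 to 0.47, an unadjusted limma p of 0.187 and an adjusted p of 0.984. Without susceptible 1 these were -1.28 and an unadjusted limma p of 0.0496. That was the sole case in which leaving out a bird brought a clock gene under 0.05. In the same fit 4.53% of all genes tested were under 0.05. The log2 fold change of NR1D2 was -0.51 without susceptible 3 and -0.55 without resistant 1, with unadjusted limma p of 0.449 and 0.422.

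BHLHE40, which competes for the sites of the ARNTL pair and also answers to hypoxia and feeding in mammals, spans 18572199 to 18575093 of chromosome 12 (plus strand). It had 11.1, 7.11 and 9.90 FPKM in resistant 1 to 3, against 6.70, 9.00 and 3.45 in susceptible 1 to 3. The lowest bird, susceptible 3, rested on 23 fragments. BHLHE40 had a log2 fold change of 0.55 (SE 0.66), within a 95% interval of -0.93 to 2.02, and 0.22 when susceptible 3 was left out.

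**Figure D1:**
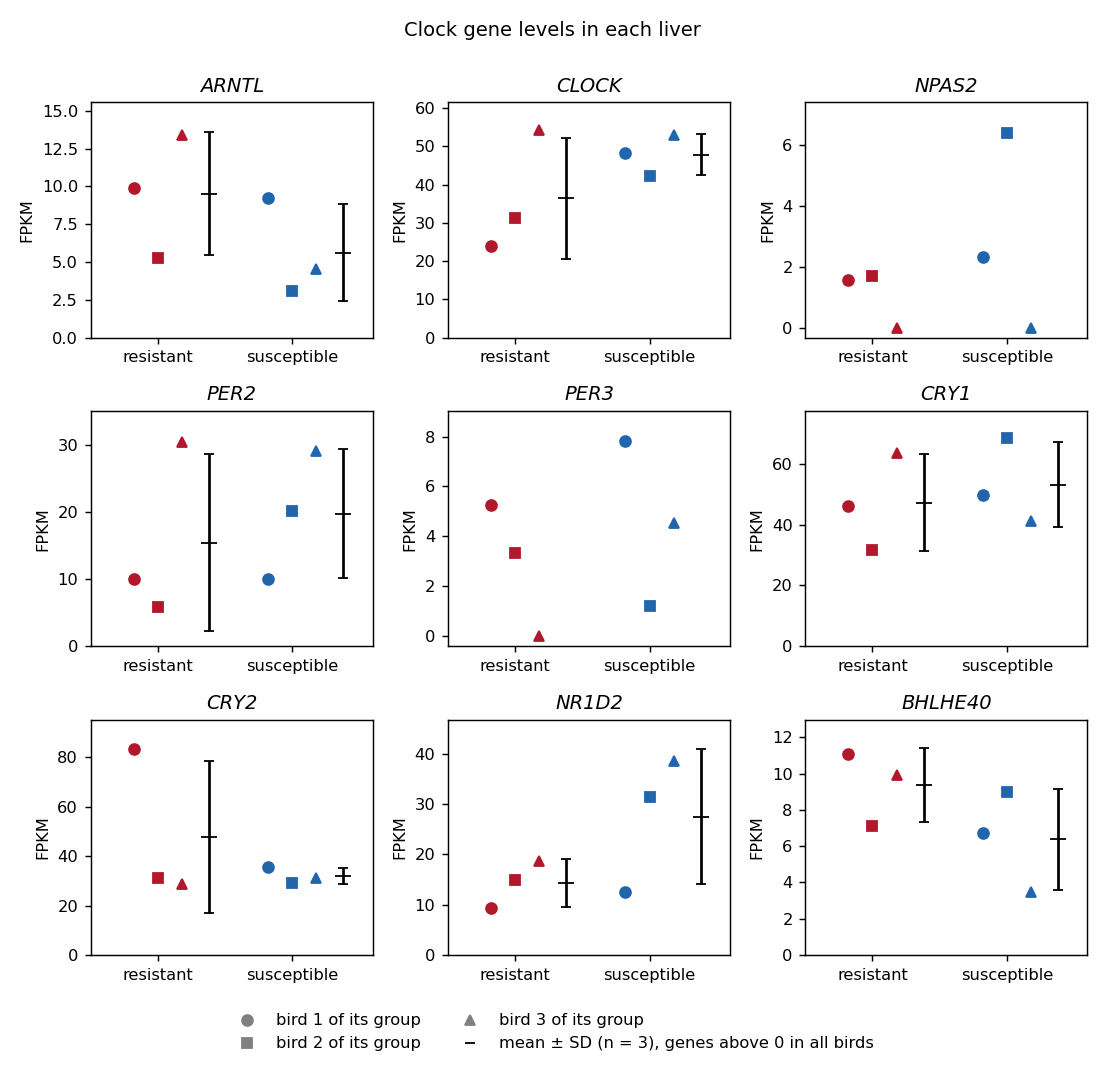
FPKM (vertical axes, linear) of the 9 clock genes in 3 resistant (red, left) and 3 susceptible livers (blue, right), with the mean ± SD of each group in black for genes above 0 in all birds. The groups overlap in every panel, and the bird numbered 3 of both groups (triangles) is high for PER2 and listed at 0 for NPAS2.

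**Figure D2:**
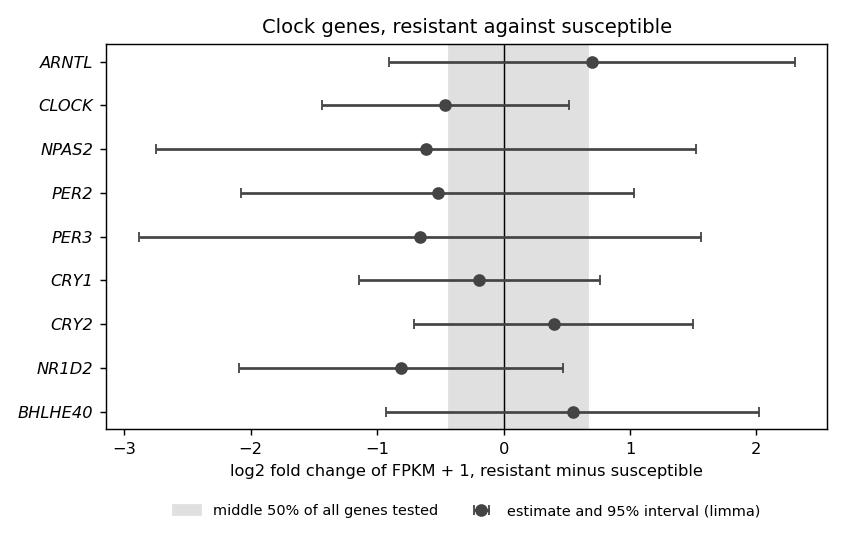
Log2 fold change of FPKM + 1, resistant minus susceptible (horizontal axis), for the 9 clock genes, with 95% intervals from limma and a grey band for the middle 50% of the 9626 genes tested (-0.43 to 0.66). Every interval includes 0, and the estimates run between -0.81 for NR1D2 and 0.70 for ARNTL.

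The ratio of activators to repressors differed among birds of the same group. The log2 ratio of ARNTL over NR1D2, which are opposed in phase in mouse liver, was 0.10, -1.50 and -0.48 in resistant 1 to 3, against -0.45, -3.36 and -3.08 in susceptible 1 to 3. The ratio of ARNTL over PER2 was -0.02, -0.13 and -1.19 in resistant 1 to 3, against -0.11, -2.72 and -2.68 in susceptible 1 to 3. Susceptible 2 and 3 were lowest for both ratios, and susceptible 1 lay among the resistant birds. Both ratios share ARNTL, for which susceptible 2 and 3 were also the lowest birds, so the ratios are not independent of each other. These ratios are a description and were not tested, and a ratio of levels does not give an hour of the day.

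The mean of ARNTL, CLOCK and NPAS2 minus the mean of PER2, PER3 and NR1D2, all as log2(FPKM + 1), separated the birds differently. It was -0.01, 0.07 and 0.12 in resistant 1 to 3, against 0.12, -0.07 and -1.49 in susceptible 1 to 3. Susceptible 3 alone stood apart, and this mean takes in NPAS2, which is listed at 0 in resistant 3 and susceptible 3, and PER3, which is listed at 0 in resistant 3.

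**Figure D3:**
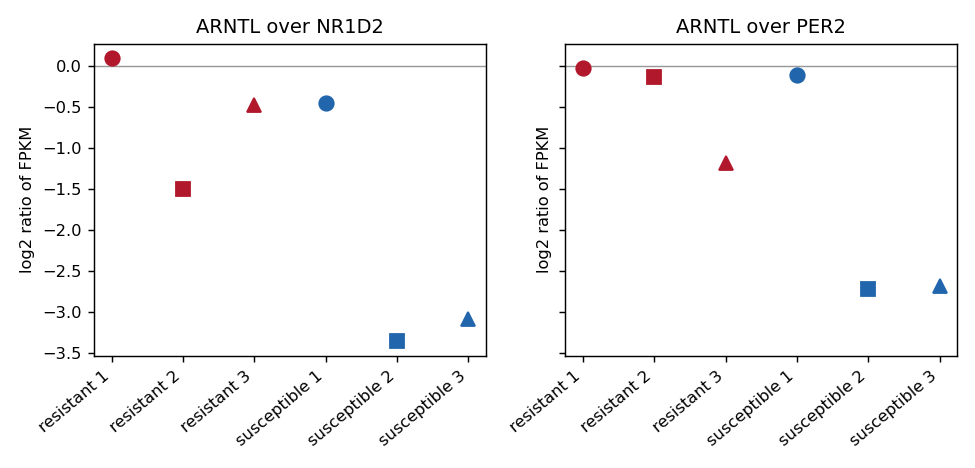
Log2 ratio of FPKM (vertical axes) of ARNTL over NR1D2 (left) and ARNTL over PER2 (right) in each liver, resistant in red and susceptible in blue. Susceptible 2 and 3 lie between -3.36 and -2.68 in both panels, below all other birds. The panels share ARNTL and are not independent.

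Among genes above 0 in every bird, the spread of the clock genes from bird to bird lay near that of other genes. Among the 4993 genes tested and above 0 in all 6 birds, the median SD of log2(FPKM + 1) over birds was 0.64 (quartiles 0.47 and 0.86), and that of the 7 such clock genes was 0.58. PER2, with 0.90, stood at percentile 79.0 of these genes, NR1D2, with 0.75, at percentile 63.2 and ARNTL, with 0.69, at percentile 56.4. CLOCK was at percentile 23.7 and CRY1 at percentile 15.7.

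Over the 9 clock genes, the median absolute log2 difference between a pair of birds ran from 0.40 for resistant 1 and susceptible 1 to 1.43 for resistant 1 and susceptible 2. Susceptible 2 and 3 differed by 0.51 and resistant 3 and susceptible 1 by 0.50, both close. The largest difference within a group was 1.15, for resistant 1 and 3. Over all genes tested these differences lay between 0.59 and 0.98.

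Pairs of clock genes were compared over the 6 birds to see whether the arms of the loop moved oppositely. Of 21 pairs among the 7 genes above 0 in all birds, 11 had a positive and 10 a negative Pearson's r, and 0 passed an adjusted p of 0.05 by an exact permutation test (2-sided, lowest adjusted p 0.547). At an unadjusted p under 0.05 the exact test counted 0 pairs, and 6 birds allow a p as small as 0.0014. ARNTL and NR1D2 had r = -0.67 (exact permutation p = 0.153, adjusted 0.547) and Spearman's rho = -0.60 (exact permutation p = 0.242, adjusted 0.747), with r = -0.85 in the 4 birds that remain without resistant 3 and susceptible 2.

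PER2 and NR1D2 had r = 0.71 (exact permutation p = 0.132, adjusted 0.547) and rho = 0.60 (exact permutation p = 0.242, adjusted 0.747), with r = 0.97 without resistant 2 and 3. ARNTL and PER2 had r = -0.02 (exact permutation p = 0.965). The smallest p belonged to CLOCK and CRY2, with r = -0.77 (exact permutation p = 0.061, adjusted 0.547) and rho = -0.54 (exact permutation p = 0.297, adjusted 0.747). That relation rests on resistant 1 and 2, without which r was 0.02.

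Of the 103 other genes listed around the clock in 8 groups, 78 were in the table, 6 of them by a RefSeq synonym, and 77 rows were tested. With limma 0 of the 77 passed the adjusted threshold, and 1 was higher and 1 lower in resistant livers at an unadjusted p under 0.05, where 2.4% of all genes were higher and 1.48% lower. The median log2 fold change of the 77 was 0.03, with 39 above 0. No overlap between groups was seen for 4 of them, RORA lower and UPP2, PPP2CA and CIRBP higher in resistant livers, where all genes gave 3.98% lower and 4.44% higher. The gaps were narrow for UPP2, 5.376 FPKM in resistant 1 against 5.340 in susceptible 1, and CIRBP, 45.05 in resistant 2 against 45.01 in susceptible 1. For PPP2CA the nearest birds were resistant 3 with 23.3 and susceptible 1 with 22.0.

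RORA is the receptor that activates ARNTL. The gene, listed in the table as RORALPHA1, spans 4513260 to 4533758 of chromosome 10 (plus strand). RORA had 14.3, 7.80 and 24.7 FPKM in resistant 1 to 3, against 26.3, 43.3 and 61.6 in susceptible 1 to 3. All 3 resistant birds were below all 3 susceptible birds, though resistant 3 and susceptible 1 lay close together. RORA thus had a log2 fold change of -1.48 (SE 0.55), within a 95% interval of -2.72 to -0.24, with an unadjusted limma p of 0.024 and an adjusted p of 0.984. The unadjusted p was above 0.05 without resistant 1 (0.053), resistant 2 (0.083), susceptible 2 (0.054) or susceptible 3 (0.089). Beside it in the group of other core clock genes, ARNTL2, a relative of ARNTL, had 8.54, 4.70 and 1.26 FPKM in resistant 1 to 3, against 5.86, 0 and 2.86 in susceptible 1 to 3.

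The output factors TEF, HLF and NFIL3 bind one and the same DNA element, TEF and HLF as activators and NFIL3 as a repressor. HLF had 5.89, 3.50 and 57.4 FPKM in resistant 1 to 3, against 11.1, 20.9 and 39.8 in susceptible 1 to 3. NFIL3 had 16.6, 20.4 and 211 FPKM in resistant 1 to 3, against 75.2, 13.3 and 102 in susceptible 1 to 3. HLF and NFIL3 were both highest in resistant 3 and susceptible 3, the birds that were also highest for PER2. The highest bird for NFIL3 was 15.8 times the lowest. NFIL3 lies on chromosome Z, of which males carry a further copy, as does KLF9, described below. What part this had in their levels was not tested. TEF was not high in those birds, with 33.9, 29.3 and 7.82 FPKM in resistant 1 to 3, against 0, 21.8 and 7.56 in susceptible 1 to 3. For TEF the log2 fold change was 1.86 (SE 1.09), but 0.59 when susceptible 1 was left out.

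Among the 13 rhythmic liver outputs tested, resistant 3 and susceptible 3 were both above or both below the other 4 birds for 7, as they were for 19.9% of all genes tested. Over the 77 other rows they were so for 28 (36.4%). The lists were chosen with earlier results of these data known, and no other pair of birds was counted in this way. Both limits hold for each list counted below, so no conclusion is drawn from these shares. The count was 4 of 18 for kinases, phosphatases and ubiquitin ligases, 5 of 14 for coregulators and 1 of 7 for immediate early genes. The same was so for 3 of the 9 clock genes, PER2 and CLOCK at the top and NPAS2 at the bottom. Of the 13 outputs, it was not so for UPP2, INSIG2, CIRBP, GYS2, KLF10 and WEE1. LPIN1, a phosphatidate phosphatase and coactivator, had 8.19, 6.47 and 148 FPKM in resistant 1 to 3, against 22.7, 19.0 and 67.8 in susceptible 1 to 3. NOCT, a rhythmic phosphatase also called nocturnin, had 2.17, 3.17 and 8.84 FPKM in resistant 1 to 3, against 3.94, 3.54 and 9.79 in susceptible 1 to 3. CYP7A1, the rate-limiting enzyme of bile acid synthesis, had 163, 167 and 18.5 FPKM in resistant 1 to 3, against 66.8, 174 and 24.6 in susceptible 1 to 3. Resistant 3 and susceptible 3 were thus the highest for LPIN1 and NOCT and the lowest for CYP7A1. ALAS1, the first enzyme of haem synthesis, was likewise lowest in them, with 28.9 and 32.0 FPKM against 66.5 or more elsewhere. LPIN1, NOCT, CYP7A1, ALAS1, POR, GYS2, KLF10 and WEE1 are named after their values were seen.

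The spread of these genes over birds was uneven. Among genes above 0 in all birds, the SD of LPIN1, NFIL3, HLF and CYP7A1 stood at percentiles 99.1, 98.8, 97.9 and 97.8, that of ALAS1 at 81.4 and that of NOCT at 59.0, below PER2. Of the other listed outputs, POR, the reductase that serves cytochrome P450 enzymes, stood at percentile 46.9, INSIG2 at 26.8 and CIRBP at 10.4. GYS2, liver glycogen synthase, stood at percentile 0.320 and lay between 53.1 and 71.8 FPKM. Between resistant and susceptible livers the median over the 13 listed outputs tested was -0.04 on the log2 scale, with 6 above 0. UPP2, a uridine phosphorylase, had 5.38, 15.0 and 22.8 FPKM in resistant 1 to 3, against 5.34, 0 and 0 in susceptible 1 to 3. Its log2 fold change was 2.86 (SE 0.99), but 1.09 with 0s as missing. The unadjusted limma p was 0.017 and the adjusted p 0.984, and the unadjusted p was 0.063 without resistant 2 and 0.073 without resistant 3. CIRBP, a cold-inducible RNA-binding protein, had 73.3, 45.0 and 60.1 FPKM in resistant 1 to 3, against 45.0, 36.8 and 42.6 in susceptible 1 to 3. INSIG2, a brake on sterol synthesis, and CDKN1A, a cell cycle inhibitor, overlapped between groups.

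**Figure D4:**
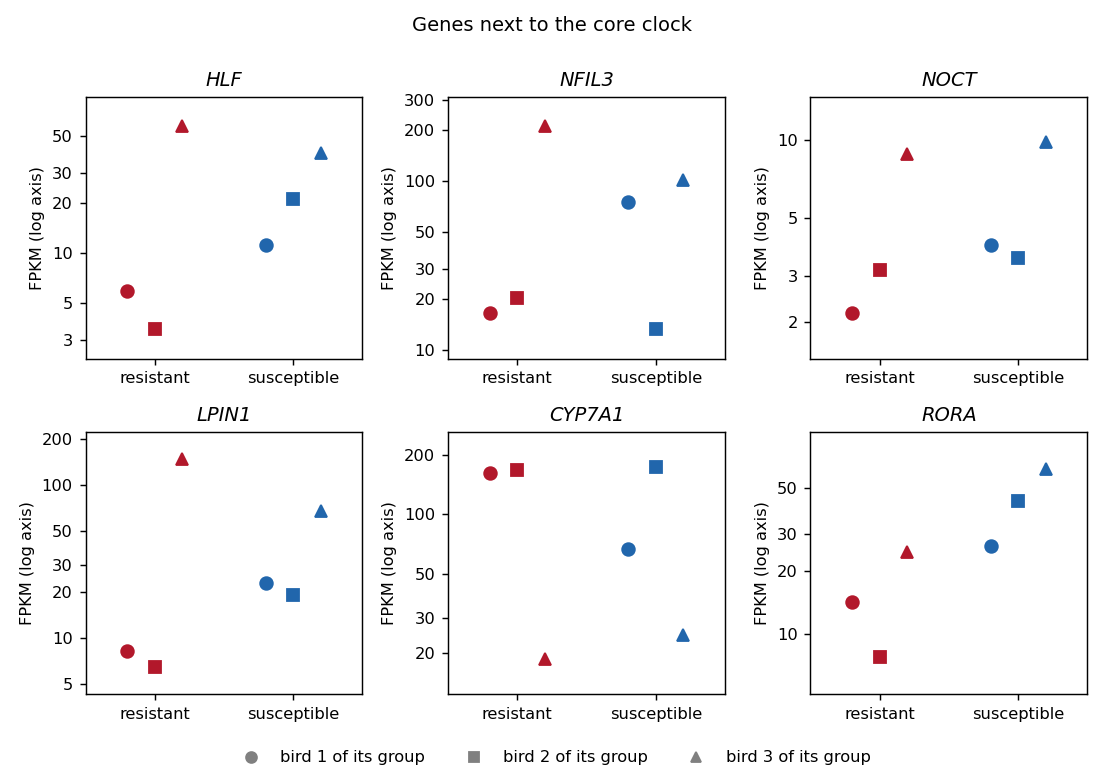
FPKM on log axes of HLF, NFIL3, NOCT, LPIN1, CYP7A1 and RORA in 3 resistant (red, left) and 3 susceptible livers (blue, right). The bird numbered 3 (triangles) is highest in its group for HLF, NFIL3, NOCT and LPIN1 and lowest for CYP7A1, and for RORA the resistant birds lie below the susceptible birds. The genes shown are a selection from those listed.

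Genes that respond to fasting and to glucocorticoids were also uneven between birds. PDK4, a brake on glucose oxidation, had 9.94, 12.3 and 210 FPKM in resistant 1 to 3, against 20.2, 6.51 and 45.2 in susceptible 1 to 3. SIK1, a kinase induced by cyclic AMP, had 7.35, 3.44 and 88.1 FPKM in resistant 1 to 3, against 8.32, 5.80 and 66.5 in susceptible 1 to 3. FKBP5, a glucocorticoid-induced chaperone, had 13.2, 5.70 and 88.9 FPKM in resistant 1 to 3, against 10.04, 22.0 and 73.8 in susceptible 1 to 3. PDK4, SIK1 and FKBP5 were again highest in resistant 3 and susceptible 3. Of the 12 genes of this list tested, these birds were both highest for 5 and both lowest for 1, ANGPTL4, listed at 0 in both. Over all genes tested 19.9% had them at either end. ANGPTL4 had 45.1, 23.1 and 0 FPKM in resistant 1 to 3, against 56.8, 13.6 and 0 in susceptible 1 to 3. PCK1, a gluconeogenic enzyme, was listed at 0 in resistant 1 and 2 and had 499 FPKM in resistant 3, against 15.0, 1.97 and 80.6 in susceptible 1 to 3. SCD, described next, and SIK1, FKBP5, ANGPTL4 and PCK1 are named after their values were seen.

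IGFBP1, a binding protein of insulin-like growth factors, was high in resistant 3 alone, with 5.92, 5.80 and 64.5 FPKM in resistant 1 to 3, against 1.57, 10.3 and 8.18 in susceptible 1 to 3. CPT1A, the carnitine gate of fatty acid oxidation, had 37.0, 52.4 and 32.0 FPKM in resistant 1 to 3, against 20.4, 26.6 and 34.5 in susceptible 1 to 3. KLF9, a glucocorticoid-responsive factor, had 6.46, 9.58 and 58.4 FPKM in resistant 1 to 3, against 13.4, 13.0 and 0 in susceptible 1 to 3. The median log2 fold change of the 12 rows was 0.15 between resistant and susceptible livers, and 0 had an unadjusted limma p under 0.05.

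Of the lipogenic genes, which rise with feeding, SCD, FASN, ACLY and SREBF1 were highest in susceptible 1. SCD, the stearoyl-CoA desaturase, had 1259, 1478 and 476 FPKM in resistant 1 to 3, against 2882, 1050 and 500 in susceptible 1 to 3. FASN, fatty acid synthase, had 624, 595 and 431 FPKM in resistant 1 to 3, against 1855, 481 and 468 in susceptible 1 to 3. ACLY, ATP citrate lyase, had 146, 160 and 187 FPKM in resistant 1 to 3, against 585, 175 and 216 in susceptible 1 to 3, and SREBF1, the factor that drives lipogenesis, had 7.23, 3.88 and 10.7 against 30.7, 7.82 and 7.18. SCD and FASN were lowest in resistant 3 and next lowest in susceptible 3. These birds were both lowest for 4 of the 9 rows tested, where 19.9% of all genes tested had them at either end. The table holds THRSP, a lipogenic regulator, in 2 rows. The more abundant had 3602, 3024 and 791 FPKM in resistant 1 to 3, against 3382, 3465 and 535 in susceptible 1 to 3. The other had 54.2, 18.5 and 32.4 FPKM in resistant 1 to 3, against 21.4, 6.27 and 68.8 in susceptible 1 to 3. Susceptible 3 was thus lowest for the more abundant row and highest for the other. The median log2 fold change of the 9 rows was -0.03, and 0 had an unadjusted limma p under 0.05.

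Over the 77 rows the median absolute log2 difference between resistant 3 and susceptible 3 was 0.47, close to 0.48 for resistant 1 and 2, and the median of the 15 pairs of birds was 0.73 and the largest value 1.24. Over the 9 clock genes resistant 3 and susceptible 3 differed by 0.61, more than resistant 3 did from susceptible 1 (0.50) or susceptible 2 (0.57). Over all genes tested that pair differed by 0.77, with 0.59 for the closest pair, resistant 1 and 2. The summed level of 5 macrophage markers was 403 FPKM in resistant 3 and 401 in susceptible 3, against 99.95 to 272 in the other birds. Of these markers CTSS, MARCO and CSF1R were highest in resistant 3 and above 0 in all 6 birds, whereas C1QA was lowest in resistant 3, with 17.0 FPKM. The summed level of 6 T and NK cell markers was 96.3 FPKM in resistant 3 and 74.9 in susceptible 3, against 22.6 to 54.3 in the other birds. In susceptible 3 that sum came mainly from CD3D with 46.9 FPKM and PTPRC with 19.3, while CD3E had 7.56, GZMA 1.19 and CD4 and CD8A were at 0. Markers of cells other than immune cells also had both birds at one end. The exocrine pancreas sum, all of it AMY1A, was 94.5 and 121 FPKM in resistant 3 and susceptible 3, against 29.0 to 65.6 elsewhere. The cholangiocyte sum was 22.6 and 25.7, against 29.8 to 47.6 elsewhere. Resistant 3 and susceptible 3 thus shared high PER2, no chromosome W fragments and shifts in part of the feeding-related genes. They also shared high macrophage, T and NK cell and exocrine pancreas sums and a low cholangiocyte sum. Among the other birds, susceptible 2 was highest for PER2, with 20.2 FPKM, and lowest for the macrophage sum. What part these traits had in the result was not tested. With no hour of collection, sex or feeding state in the labels, these cannot be told apart in 2 birds.

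In the 4 birds with chromosome W fragments, 2 resistant and 2 susceptible, 0 of the 9 clock genes had an unadjusted limma p under 0.05 and the median log2 fold change was -0.59. The log2 fold change was 0.36 for ARNTL, -0.71 for CLOCK, -0.81 for PER2 and -0.71 for NR1D2. That of PER3 turned to 0.24. Of the 77 other rows 6 were then lower at an unadjusted p under 0.05, RORA, LPIN1, PCK1, DUSP1, JUN and INSIG2, and 1 was higher, FBXW7. Over the 9446 genes tested in these birds 1.93% were lower and 4.59% higher by the same rule. None of these 7 passed the adjusted threshold, with 0.743 the lowest limma adjusted p. PCK1 was listed at 0 in both resistant birds used here. Over all birds with 0s as missing, its log2 fold change was 4.99, with resistant 3 alone left in its group. FBXW7 had 0.462 and 0 FPKM in the susceptible birds used here.

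**Figure D5:**
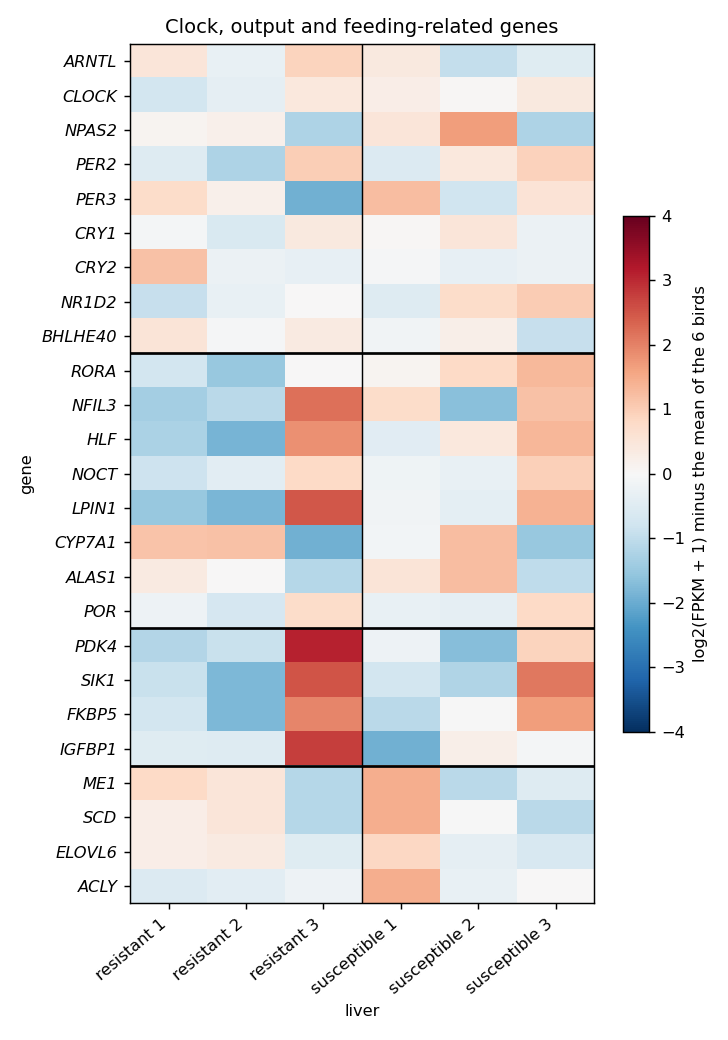
Log2(FPKM + 1) minus the mean of the 6 birds (colour) for the 9 clock genes and 16 genes around them (rows) in each liver (columns, resistant left of susceptible). Resistant 3 and susceptible 3 share red for PER2, HLF, NFIL3, LPIN1, SIK1 and FKBP5 and blue for NPAS2, CYP7A1, ALAS1 and SCD. The 16 genes are a selection from the lists. The listed outputs without this pattern, UPP2, INSIG2, CIRBP, GYS2, KLF10 and WEE1, are not shown, nor is ANGPTL4.

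Kinases, phosphatases and ubiquitin ligases set the life of PER and CRY proteins. The median SD of their 18 rows over birds was 0.60 on the log2 scale. Named after its values were seen, CSNK1D, casein kinase 1 delta, a kinase of the PER proteins, lay between 10.6 and 15.8 FPKM, with the lowest SD of the 18 (percentile 1.28). BTRC, an F-box protein that targets PER proteins, had the highest SD, 1.73, and was listed at 0 in resistant 3 and susceptible 2. Of the 18 rows, 11 had a log2 fold change above 0, with a median of 0.24, and 0 had an unadjusted limma p under 0.05. PPP2CA, the catalytic subunit of protein phosphatase 2A, had 29.8, 30.8 and 23.3 FPKM in resistant 1 to 3, against 22.0, 8.99 and 21.3 in susceptible 1 to 3. Leaving out susceptible 2 brought its log2 fold change to 0.34, against 0.74 with all birds. CSNK1E, casein kinase 1 epsilon, had 20.3, 19.8 and 29.3 FPKM in resistant 1 to 3, against 14.5, 8.15 and 21.9 in susceptible 1 to 3. CSNK2A2, a catalytic subunit of casein kinase 2, had 27.7, 18.4 and 36.3 FPKM in resistant 1 to 3, against 16.4, 21.8 and 4.84 in susceptible 1 to 3. FBXW7, an F-box protein, had 3.22, 3.12 and 5.73 FPKM in resistant 1 to 3, against 0.462, 0 and 4.70 in susceptible 1 to 3.

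Among 14 rows of coregulators of the loop, 6 had a log2 fold change above 0, with a median of -0.05, and 0 had an unadjusted limma p under 0.05. TBL1XR1, of the NCOR1 corepressor complex through which the NR1D receptors act, had 27.8, 5.95 and 47.0 FPKM in resistant 1 to 3, against 36.5, 42.4 and 27.9 in susceptible 1 to 3. WDR5, a histone methylation cofactor found with PER proteins, had 18.02, 12.6 and 28.8 FPKM in resistant 1 to 3, against 26.6, 23.9 and 31.8 in susceptible 1 to 3. KDM5A, a histone demethylase and partner of the ARNTL pair in mammals, lay between 1.61 and 4.85 FPKM. HNRNPD, which binds clock transcripts, was listed at 0 in resistant 1.

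The genes whose pattern over the 6 birds was most like that of a clock gene were looked up among 4268 genes with a symbol, a mean of at least 5 FPKM and no 0. For PER2 they were FBXW11 (Pearson's r = 0.98), an F-box protein that targets PER proteins for breakdown, and MPPED1 (r = 0.98). FBXW11 had 14.5, 9.57 and 31.8 FPKM in resistant 1 to 3, against 13.9, 21.8 and 24.5 in susceptible 1 to 3. For ARNTL they were DMGDH, an enzyme of choline breakdown, and RIPK1, a kinase of cell death signalling, both with r = 0.98. For NR1D2 they were DEPDC6 (r = 0.97) and SOX6 (r = 0.96). For CLOCK they were C12H3ORF19 and LCAT, the lecithin-cholesterol acyltransferase of plasma, both with r = 0.97. For CRY1 they were TAB3 (r = 1.00) and ST13 (r = 0.98), for CRY2 SIGIRR (r = 0.97) and ARID1B (r = 0.95), and for BHLHE40 MTIF2 (r = 0.99) and SEC24B (r = 0.98). The genes named are the 2 highest of the 4268 by r for each clock gene, over 6 birds. An r above 0.9 was reached by 2.32% of the 4268 genes with PER2, 1.17% with ARNTL, 0.422% with NR1D2 and 0.211% with CRY2. The share was 1.55% with CRY1, 1.27% with CLOCK and 0.914% with BHLHE40.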

How the data were processed

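Liver RNA of 3 resistant and 3 susceptible birds was analysed, with groups and bird numbers taken from the sample titles and columns matched through the sample descriptions. FPKM values were deposited by the authors. Tools listed, without roles, in the submitters' processing notes are HISAT2 2.0.4, cutadapt 1.9.3, Cufflinks and Cuffdiff, and the build is galGal4. A normalized signal, headed counts, was deposited by the authors too, and between 99.3% and 99.6% of its values above 0.1 fell on whole multiples of a step (tolerance 0.02 steps). Dividing by the step gave the fragments stated. There were 0 columns of other samples. Starts were raised by 1.

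The test was limma 3.58.1 in R 4.3.3 (eBayes with a trend) on log2(FPKM + 1), resistant minus susceptible, for 9626 genes with a mean of at least 0.5 FPKM, 2-sided, with Benjamini-Hochberg adjustment at 0.05. Fold changes on this scale understate the change of low genes. It was tested on simulated data. Pairs of genes were tested by exact permutation in Python 3.11.15, and figures drawn with matplotlib 3.10.9. The clock genes and lists were chosen with earlier results of these data known. Named genes are the clock genes, the 4 tested genes with the smallest p of each list and the 2 most alike to each clock gene. Other genes, marker genes among them, were named after their values were seen. RefSeq synonyms (GRCg7b table) were used for names only, and listed genes found by neither symbol nor synonym were not analysed here. Alternatives were another pseudocount, other filters, rescaling, scaled counts, 0s as missing, a replicate block, leaving out each bird, and birds with chromosome W fragments (at least 10). Protein and promoter sequences were not used here.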

Additional observations from a re-analysis of the deposited data

How the results depend on the processing

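No clock gene passed the adjusted threshold under any of the 14 alternative settings run. Between 0 and 1 clock genes had an unadjusted limma p under 0.05 without each bird in turn, where 3.18% to 5.42% of all genes did. The 7 genes matched by symbol alone gave a median log2 fold change of -0.46. The median over the 9 genes lay between -0.36 and 0.0032 without each bird in turn. Directions turned for PER3 (0.13 with 0s as missing and without resistant 3, 0.24 in the birds with chromosome W fragments), CRY2 (-0.088 without resistant 1), CRY1 (0.060 without resistant 2 and 0.0032 without susceptible 2) and NPAS2 (0.064 without susceptible 2). Without each bird in turn the range was -1.22 to 0.13 for PER3, -0.088 to 0.66 for CRY2, -0.43 to 0.060 for CRY1 and -1.38 to 0.064 for NPAS2. The cause was not tested. Of the other genes around the clock, between 0 and 2 were higher and between 0 and 6 lower at an unadjusted p under 0.05 without each bird, where 1.8% to 3.52% of all genes were higher and 0.825% to 2.15% lower. The 6 arose without resistant 3, where 1.9% of all genes were lower, and 6 were lower in the birds with chromosome W fragments. The median of all genes was 0.05, 0.13 with rescaling by median ratios, 0.14 with scaled counts and -0.20 with 0s as missing. The clock median was -0.19 with 0s as missing and -0.19 over the 7 clock genes left by a filter of 5 FPKM, -0.37 with rescaling and -0.47 with scaled counts. No clock gene changed direction under rescaling or scaled counts. With a replicate block on bird number the clock median was -0.46 and 0 clock genes had an unadjusted p under 0.05. Same-numbered birds had deviations from their group means that correlated at 0.01, 0.04 and 0.17, and not every bird correlated best with its own number. The value of 0.17, for the birds numbered 3, was the highest of all pairs of a resistant and a susceptible bird. The labels name no pairing of birds, and the main test used none. The planned count models were not run, because some scaled counts are not whole multiples of a step. With a filter of 5 FPKM, NPAS2 and PER3 gave no value.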

Other observations

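Immediate early genes, which respond within minutes to stress or hormones, varied between birds in both groups, DUSP1 least in the susceptible birds. EGR1 had 31.9, 26.2 and 217 FPKM in resistant 1 to 3, against 68.6, 8.27 and 53.9 in susceptible 1 to 3. DUSP1, a phosphatase of MAP kinases, had 10.2, 4.41 and 34.5 FPKM in resistant 1 to 3, against 23.8, 21.9 and 24.7 in susceptible 1 to 3. JUN had 41.3, 31.2 and 87.1 FPKM in resistant 1 to 3, against 113, 75.9 and 41.2 in susceptible 1 to 3. ATF3 had 1.08, 1.22 and 10.3 FPKM in resistant 1 to 3, against 13.9, 0 and 9.24 in susceptible 1 to 3. Resistant 1 and 2 were the lowest birds for DUSP1, resistant 2 was the lowest for JUN with resistant 1 and susceptible 3 close together above it, and resistant 3 was the highest bird for EGR1 and DUSP1. With limma 0 of the 7 rows tested had an unadjusted p under 0.05, and the median log2 fold change was -0.33. At that threshold DUSP1 was lower in resistant livers without resistant 3 (log2 fold change -1.65), and DUSP1 (-1.62) and JUN (-1.34) were lower in the 4 birds with chromosome W fragments, with adjusted p of 0.743 or more.

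Fibrinogen chains, plasma proteins that rise in the acute phase response, were named after their values were seen. FGB had 2133, 1699 and 5606 FPKM in resistant 1 to 3, against 2980, 2014 and 6489 in susceptible 1 to 3. FGG had 1688, 2008 and 5374 FPKM in resistant 1 to 3, against 2602, 2082 and 4534 in susceptible 1 to 3. Both were highest in resistant 3 and susceptible 3, the birds that were also highest for PER2. Of the other hepatocyte markers, SERPINC1 was also highest in these birds and AHSG lowest. TTR, APOA1, TF and ALB did not have both birds at one end. Over all genes tested 19.9% had them both at one end.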
